A study of Mus musculus with 2 samples.

Results

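Oxidative phosphorylation (OXPHOS) is the step by which mitochondria turn the electrons of NADH and succinate into ATP. Complex I takes electrons from NADH and complex II, the succinate dehydrogenase, takes them from succinate. Complex III passes them to cytochrome c, complex IV hands them to oxygen, and complex V, the ATP synthase, uses the proton gradient that is built on the way. Most subunits are encoded in the nucleus and imported, while a small set is encoded by mitochondrial DNA. In immune cells, neutrophils are known for few mitochondria and a reliance on glycolysis, whereas dividing T cells build up mitochondria.

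The nuclear-encoded OXPHOS genes were taken by symbol: names starting with Ndufa, Ndufb, Ndufc, Ndufs, Ndufv, Uqcr, Cox4i, Cox5, Cox6, Cox7, Cox8 or Atp5, with Sdha, Sdhb, Sdhc, Sdhd and Cycs. Of 117 such names, 15 pseudogene symbols, 9 genes with fewer than 100 UMIs over both libraries and Cox6a2, a marker of plasmacytoid dendritic cells, were left out. This left 92 of 56941 features, with 91 symbols, because Atp5o stood under 2 identifiers (ENSMUSG00000022956 and ENSMUSG00000116933). A UMI (unique molecular identifier) counts 1 RNA molecule. The 8 Ndufaf genes came in by their prefix, although they encode assembly factors of complex I and not subunits.

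The cells came from liver metastases of MC38-LM3b, a line derived from the MC38 mouse colorectal carcinoma. C57BL/6 mice of 6 to 8 weeks received cells in the spleen that carried either shScramble (Ctrl) or shSLAMF3 (KD), a short hairpin RNA against SLAMF3, the receptor encoded by Ly9, and lesions were taken 2 weeks later. CD45+ cells of 3 mice were pooled into 1 library per group, so no difference between Ctrl and KD could be tested and the mice cannot be told apart. All intervals below are 95% intervals for counting error only. The hairpin acted in the tumor cells, whereas the hosts were not altered.

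The Ctrl library held 10416 cells and 67207234 UMIs, of which 9814 cells passed the filters, and the KD library held 10943 cells and 64444715 UMIs, of which 10185 passed. Both libraries shared 24 cell barcodes after filtering. Ly9 stood at 12 UMIs in Ctrl and 7 in KD in the tumor-like or fibroblast-like cells, too few to check the hairpin. Cells were clustered without the OXPHOS genes and without mitochondrial genes, and clusters were named by marker genes, so that each class is "like" its name. The NK class was mixed: T cell genes (Lef1 and Tcf7) were among its leading genes. At resolution 1.0, 179 Ctrl and 219 KD cells were named NK and a separate unnamed cluster of 255 and 511 cells was led by Lef1, Tcf7 and Il7r. Values for NK cells are those of the mixed class. Summed markers of granulocytes were higher in KD in every other class, with 448 in Ctrl and 2169 in KD in macrophages, in CPM (UMIs scaled to the same class total in every class and library), and 101 and 849 CPM in T cells, and their part in the results was not tested.

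Promoter windows are shown because the ratios of many OXPHOS genes lay on one side between the libraries. RefSeq windows of 300 bases (GRCm38.p6), from 250 before to 50 after a start, were found for 76 of the 91 symbols. The core motif of NRF1, a known regulator of respiratory chain genes, was searched on both strands and stood in 24.7% of 81 windows of the set against 4.60% of all 32851 windows. The YY1 core stood in 7.41% against 0.852%, the ETS core ACCGGAAG in 9.88% against 2.30%, and the ERR site TCAAGGTCA in 2.47% against 0.423%. The median GC content was also higher, 59.0% against 52.7% in all windows. These 4 windows show that the NRF1 core stood both before genes with lower CPM in KD macrophages (Ndufs5 and Atp5g2) and before genes with higher CPM there (Atp5c1 and Sdhd). Capitals mark the motifs, on either strand. In Sdhd they are the NRF1, ETS and ERR matches, in that order.
Ndufs5 (chr4:123718137-123718436, - strand): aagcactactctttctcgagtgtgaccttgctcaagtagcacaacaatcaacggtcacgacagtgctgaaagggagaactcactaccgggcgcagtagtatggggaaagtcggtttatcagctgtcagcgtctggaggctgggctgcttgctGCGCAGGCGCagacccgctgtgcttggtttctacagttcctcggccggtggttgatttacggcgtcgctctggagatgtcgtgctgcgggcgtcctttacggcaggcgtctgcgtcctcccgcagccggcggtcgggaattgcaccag
Atp5g2 (chr15:102670998-102671297, - strand): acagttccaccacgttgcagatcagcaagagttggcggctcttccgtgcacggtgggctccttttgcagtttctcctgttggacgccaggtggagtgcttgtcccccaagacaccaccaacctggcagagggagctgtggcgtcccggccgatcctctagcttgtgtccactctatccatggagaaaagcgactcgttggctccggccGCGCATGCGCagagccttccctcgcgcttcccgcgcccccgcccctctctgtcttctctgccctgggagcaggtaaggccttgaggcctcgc
Atp5c1 (chr2:10080383-10080682, - strand): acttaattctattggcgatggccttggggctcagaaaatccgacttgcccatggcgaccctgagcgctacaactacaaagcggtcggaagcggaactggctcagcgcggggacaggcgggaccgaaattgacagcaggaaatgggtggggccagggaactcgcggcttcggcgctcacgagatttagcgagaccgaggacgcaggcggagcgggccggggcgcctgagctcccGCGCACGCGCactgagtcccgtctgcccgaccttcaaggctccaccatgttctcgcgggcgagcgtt
Sdhd (chr9:50603800-50604099, - strand): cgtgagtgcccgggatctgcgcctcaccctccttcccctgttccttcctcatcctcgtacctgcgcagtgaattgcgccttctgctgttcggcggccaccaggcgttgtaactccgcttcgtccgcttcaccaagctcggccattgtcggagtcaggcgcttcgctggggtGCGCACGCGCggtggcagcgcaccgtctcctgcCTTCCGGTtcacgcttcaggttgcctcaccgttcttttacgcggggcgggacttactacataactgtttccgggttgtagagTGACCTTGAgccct

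The first question was how much of each cell class's RNA came from these genes. T cells had the highest share in Ctrl, 1.76% of their UMIs, against 1.61% in conventional dendritic cells (cDC), 1.48% in macrophages, 1.42% in tumor-like or fibroblast-like cells and 1.38% in Kupffer cells. Plasmacytoid dendritic cells (pDC) had 1.26%, endothelial cells 1.07%, NK cells 1.01%, B cells 0.860% and granulocytes 0.449%. In KD, tumor-like or fibroblast-like cells came first with 1.64%, ahead of T cells with 1.53%, macrophages with 1.36% and cDC with 1.34%. B cells (0.719%) and granulocytes (0.492%) were again lowest in KD, while NK cells (0.941%) and endothelial cells (0.864%) changed places. Kupffer cells (1.26% in KD) and pDC (1.19%) rested on 48 to 83 cells per library. Depth differed as well: Ctrl cells held a mean of 2357 UMIs in granulocytes, 2987 in B cells, 3733 in NK cells and 6390 in macrophages. In Ctrl macrophages the median share was 1.08% below the class's median UMI count and 1.59% at or above it. In Ctrl granulocytes these were 0.427% and 0.387%. The part of depth in the order of classes was not tested.

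**Figure D1:**
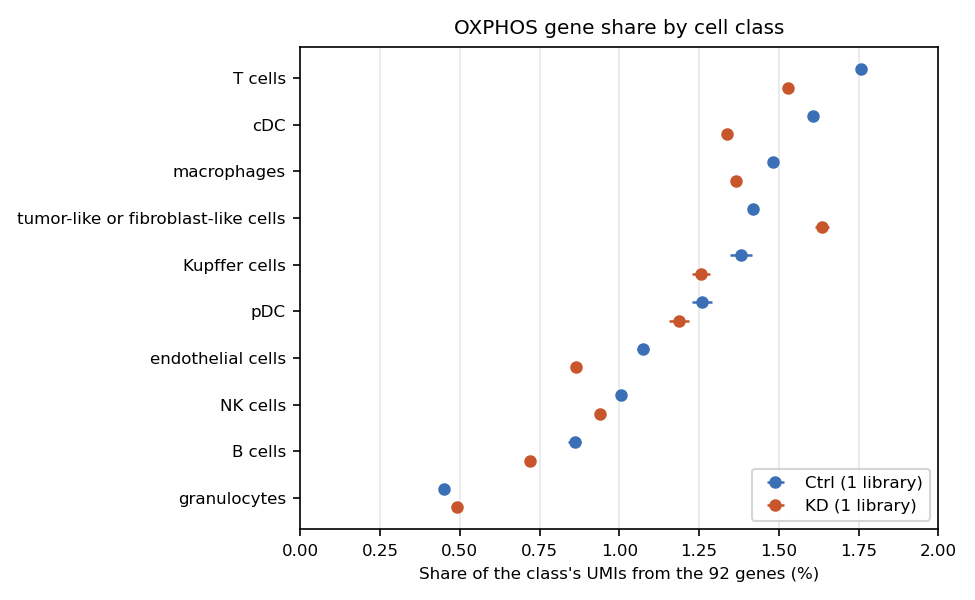
Share of each class's UMIs (x axis, percent) that came from the 92 OXPHOS genes, for Ctrl (blue) and KD (orange), with 1 library each and bars for the 95% counting interval. KD lies below Ctrl in 8 of 10 classes and above it in granulocytes (0.449% to 0.492%) and in tumor-like or fibroblast-like cells (1.42% to 1.64%).

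Granulocytes had the lowest share of all classes in both libraries. Their summed CPM of OXPHOS genes was 0.303 times that of macrophages in Ctrl (log2 -1.72, -1.75 to -1.69) and 0.361 times in KD (log2 -1.47, -1.49 to -1.46). Of 88 OXPHOS genes compared in Ctrl, 87 were at least 20% lower in granulocytes, against a background of 69.0% of all genes, and 1 was at least 25% higher, against 18.3%. In KD 84 of 86 were lower, against 64.3%, and 1 was higher, against 21.2%. With TMM scaling, which matches the bulk of genes between classes, the log2 differences shrank to -0.75 in Ctrl and -0.69 in KD. Only T cells and granulocytes were scaled this way against macrophages. Unscaled, B cells stood at -0.78 in Ctrl and -0.93 in KD, so a place below B cells is shown for unscaled shares only. Over the 5 classes with at least 300 cells in each library, granulocytes were lowest in both libraries for 79 of 89 OXPHOS genes. T cells were highest in both libraries for 42 and macrophages for 9. Classes were not ranked for all genes, of which 69.0% in Ctrl and 64.3% in KD were lower in granulocytes than in macrophages.

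Among genes whose highest and lowest classes were the same in both libraries, those with the widest range over those 5 classes were Ndufaf4, Cox4i2, Ndufa5, Ndufaf6 and Ndufa9. Ndufaf4, an assembly factor of complex I, had 31.7 CPM in NK cells and 0.543 CPM in granulocytes in Ctrl, and 32.2 and 0.961 CPM in KD. Ndufa5, an accessory subunit, had 65.7 CPM in T cells and 2.17 in granulocytes in Ctrl, and 47.8 and 3.57 CPM in KD. Ndufa9, another accessory subunit, had 49.9 CPM in T cells and 4.35 in granulocytes in Ctrl, with 48.1 and 3.57 CPM in KD. These granulocyte values came from only 1 to 26 UMIs. Cox4i2, the isoform of complex IV subunit 4 known for its induction at low oxygen, had the opposite home: 21.2 CPM in Ctrl macrophages against 0.279 CPM in Ctrl T cells. Its paralog Cox4i1, used in most cells, had 561 CPM in Ctrl macrophages and 639 CPM in Ctrl T cells.

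The summed CPM of T cells exceeded that of macrophages by a log2 of 0.25 (0.24 to 0.25) in Ctrl and 0.16 (0.15 to 0.17) in KD. This was no more than other genes showed. In Ctrl, 34 of 89 OXPHOS genes were higher in T cells by the same fold, against 48.8% of all genes, and 4 were lower, against 28.9%. In KD 23 of 89 were higher, against 45.8%, and 8 lower, against 29.8%. With TMM scaling the order turned, to -0.028 in Ctrl and -0.061 in KD, and without the clusters led by cell cycle genes the KD difference was -0.0057.

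By unscaled summed CPM, NK and B cells lay between macrophages and granulocytes. In NK cells the log2 difference from macrophages was -0.56 (-0.58 to -0.54) in Ctrl and -0.54 (-0.55 to -0.52) in KD. In Ctrl 67 of 88 OXPHOS genes were lower there (38.5% of all genes) and 6 higher (39.1%), and in KD 66 of 87 were lower (36.8%) and 5 higher (39.3%). In B cells the difference was -0.78 (-0.82 to -0.75) in Ctrl and -0.93 (-0.95 to -0.90) in KD. In Ctrl 70 of 88 were lower (40.5%) and 3 higher (38.7%), and in KD 75 of 87 were lower (40.3%) and 5 higher (39.6%). The cDC stayed near macrophages, with 14 of 88 higher (22.4%) and 6 lower (29.5%) in Ctrl, and 8 of 87 higher (23.4%) and 7 lower (26.6%) in KD.

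Among the sub-clusters with at least 50 cells in each library, T cells with replication or histone genes in front carried the highest shares. The T cell sub-cluster led by Ung and by the DNA replication genes Mcm2 and Mcm3 had 2.01% in Ctrl and 1.82% in KD. The one led by histone genes (H2ac24, H2ac8) had 1.95% and 1.80%. The sub-cluster led by Foxp3, the factor of regulatory T cells, had 1.85% in Ctrl and 1.49% in KD. The sub-cluster led by Ccl5 and Gzma had 1.37% and 1.27%, and the one led by Tnfsf8, Cd40lg and Cd4 had 1.11% in KD (log2 ratio of KD over Ctrl -0.17, -0.21 to -0.13). Among macrophages, the sub-cluster led by Upp1, Ly6i and Isg15 had 1.70% and 1.54%, the one led by Mmp12, Ccl8 and Mgl2 had 1.53% and 1.36%, and the inflammatory one led by Il1a, Cxcl1 and Il6 had 1.38% and 1.24%. A sub-cluster of few UMIs in each class stood far below the rest, with 0.617% and 0.478% in macrophages and 0.477% and 0.496% in T cells. Mitochondrial transcripts took a median of 3.78% and 5.92% of the UMIs in these cells, against 1.18% to 1.79% in the other 5 macrophage sub-clusters of that size.

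**Figure D2:**
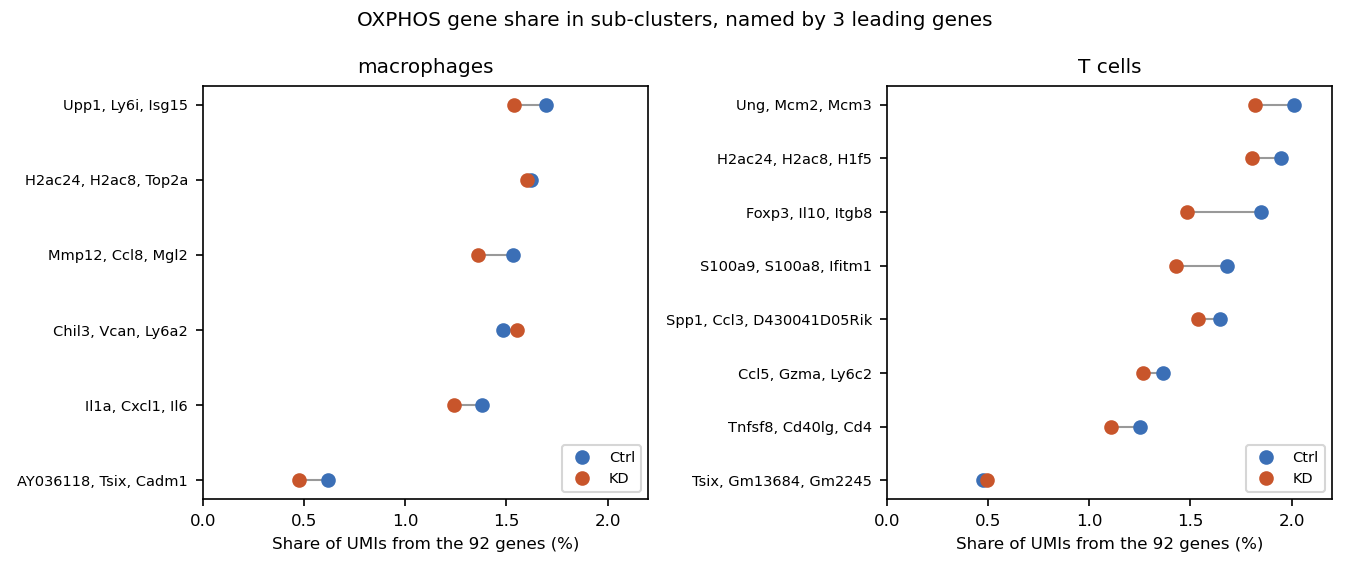
Share of UMIs from the 92 OXPHOS genes (x axis, percent) in Ctrl (blue) and KD (orange) for sub-clusters with at least 50 cells in each library, labelled by 3 leading genes. KD lies left of Ctrl in 5 of 6 macrophage sub-clusters (not in the one led by Chil3 and Vcan, 1.48% to 1.55%) and in 7 of 8 T cell sub-clusters, of which the one led by S100a9 has granulocyte genes in front.

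The second question was how the OXPHOS genes differed between KD and Ctrl. In macrophages the summed share went from 1.48% to 1.36%, a log2 ratio of KD over Ctrl of -0.12 (-0.12 to -0.11), and in T cells from 1.76% to 1.53%, a log2 ratio of -0.20 (-0.21 to -0.19). When every cell was thinned to 1500 UMIs the ratio in macrophages was -0.051. These ratios compare shares, not amounts per cell. The mean count of OXPHOS UMIs per macrophage was 94.6 in Ctrl and 107 in KD, where all UMIs per cell were 6390 and 7828. Per T cell it was 137 and 105, with 7816 and 6894 UMIs in all. Ratios below 0 were also found in endothelial cells (-0.31, -0.34 to -0.29), cDC (-0.26, -0.28 to -0.25), B cells (-0.26, -0.30 to -0.22), Kupffer cells (-0.14, -0.19 to -0.088), NK cells (-0.096, -0.12 to -0.068) and pDC (-0.086, -0.14 to -0.033). In NK cells the sign depended on how cells were classed, with 0.20 where single cells were named by their marker UMIs. The median log2 ratio of all genes was also below 0 in Kupffer cells (-0.11), NK cells (-0.056) and pDC (-0.074). With TMM scaling between the libraries, the OXPHOS ratios there were -0.028, -0.036 and -0.018, so little was left beyond the shift of all genes. Within sub-clusters of at least 50 cells in each library, the ratio was below 0 in 5 of 6 among macrophages, with a range of -0.37 to 0.068. It was below 0 in 7 of 8 among T cells, with a range of -0.31 to 0.057. Of these 8, 1 was led by granulocyte genes (S100a9 and S100a8). The lowest macrophage value and the T cell value above 0 (0.057, -0.060 to 0.17) came from the sub-clusters of few UMIs. The libraries filled the sub-clusters unequally. The macrophage sub-cluster led by Upp1 held 1270 cells in Ctrl and 231 in KD, the one led by Ltc4s and Pf4 held 6 and 337, and the dividing one held 486 and 112. Among T cells, the sub-cluster led by Spp1, Ccl3 and Prf1 held 842 and 176 cells and the one led by Cd40lg and Cd4 held 142 and 348.

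Granulocytes and tumor-like or fibroblast-like cells lay on the other side. In granulocytes the log2 ratio was 0.13 (0.098 to 0.17), but it was 0.018 with TMM scaling, which moved all genes of this class by -0.11, and -0.054 with clusters at resolution 1.0. Of the granulocytes, a cluster led by Ngp, Camp and Ltf, genes of immature neutrophils, held 43 cells in Ctrl and 591 in KD. Within that cluster the ratio was -0.070 (-0.15 to 0.010), and within the cluster led by Hcar2 and G0s2 it was 0.067 (0.027 to 0.11). Summed granulocyte markers themselves took 72636 CPM in Ctrl and 118066 CPM in KD. In tumor-like or fibroblast-like cells, 161 in Ctrl and 96 in KD, the ratio was 0.21 (0.18 to 0.23). Among cells at or above the class's median UMI count, the median share per cell was 1.67% in Ctrl (77 cells) and 1.67% in KD (52 cells), and below it the median was 0.640% (84 cells) and 1.31% (44 cells). No difference between classes was tested.

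By the number of genes at least 25% higher or 20% lower, called the fold here, 26 of the 89 OXPHOS genes with at least 200 UMIs were lower in KD macrophages, against 16.1% of all genes, and 5 were higher, against 11.2%. In T cells 23 of 87 were lower, against 9.33%, and none was higher, against 8.64%. In cDC 38 of 79 were lower (12.7% of all genes) and in endothelial cells 38 of 74 (20.2%), with none higher in either (11.6% and 18.6%). In B cells 17 of 45 were lower (11.3%) and none higher (8.20%). In NK cells 11 of 64 were lower (15.0%) and 3 higher (6.59%). Of 17 genes measured in pDC, 2 were lower (21.6%) and 2 higher (9.09%), and of 21 in Kupffer cells, 5 were lower (25.5%) and 1 higher (14.8%). In granulocytes 20 of 58 were higher against 34.6% of all genes, and 7 were lower against 21.9%, so the count of higher genes was at the background. In tumor-like or fibroblast-like cells 24 of 71 were higher (16.4%) and 5 lower (28.0%). The median log2 ratio was -0.13 for the OXPHOS genes and -0.025 for all genes in macrophages, -0.22 and -0.031 in T cells, and 0.19 and 0.14 in granulocytes.

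**Figure D3:**
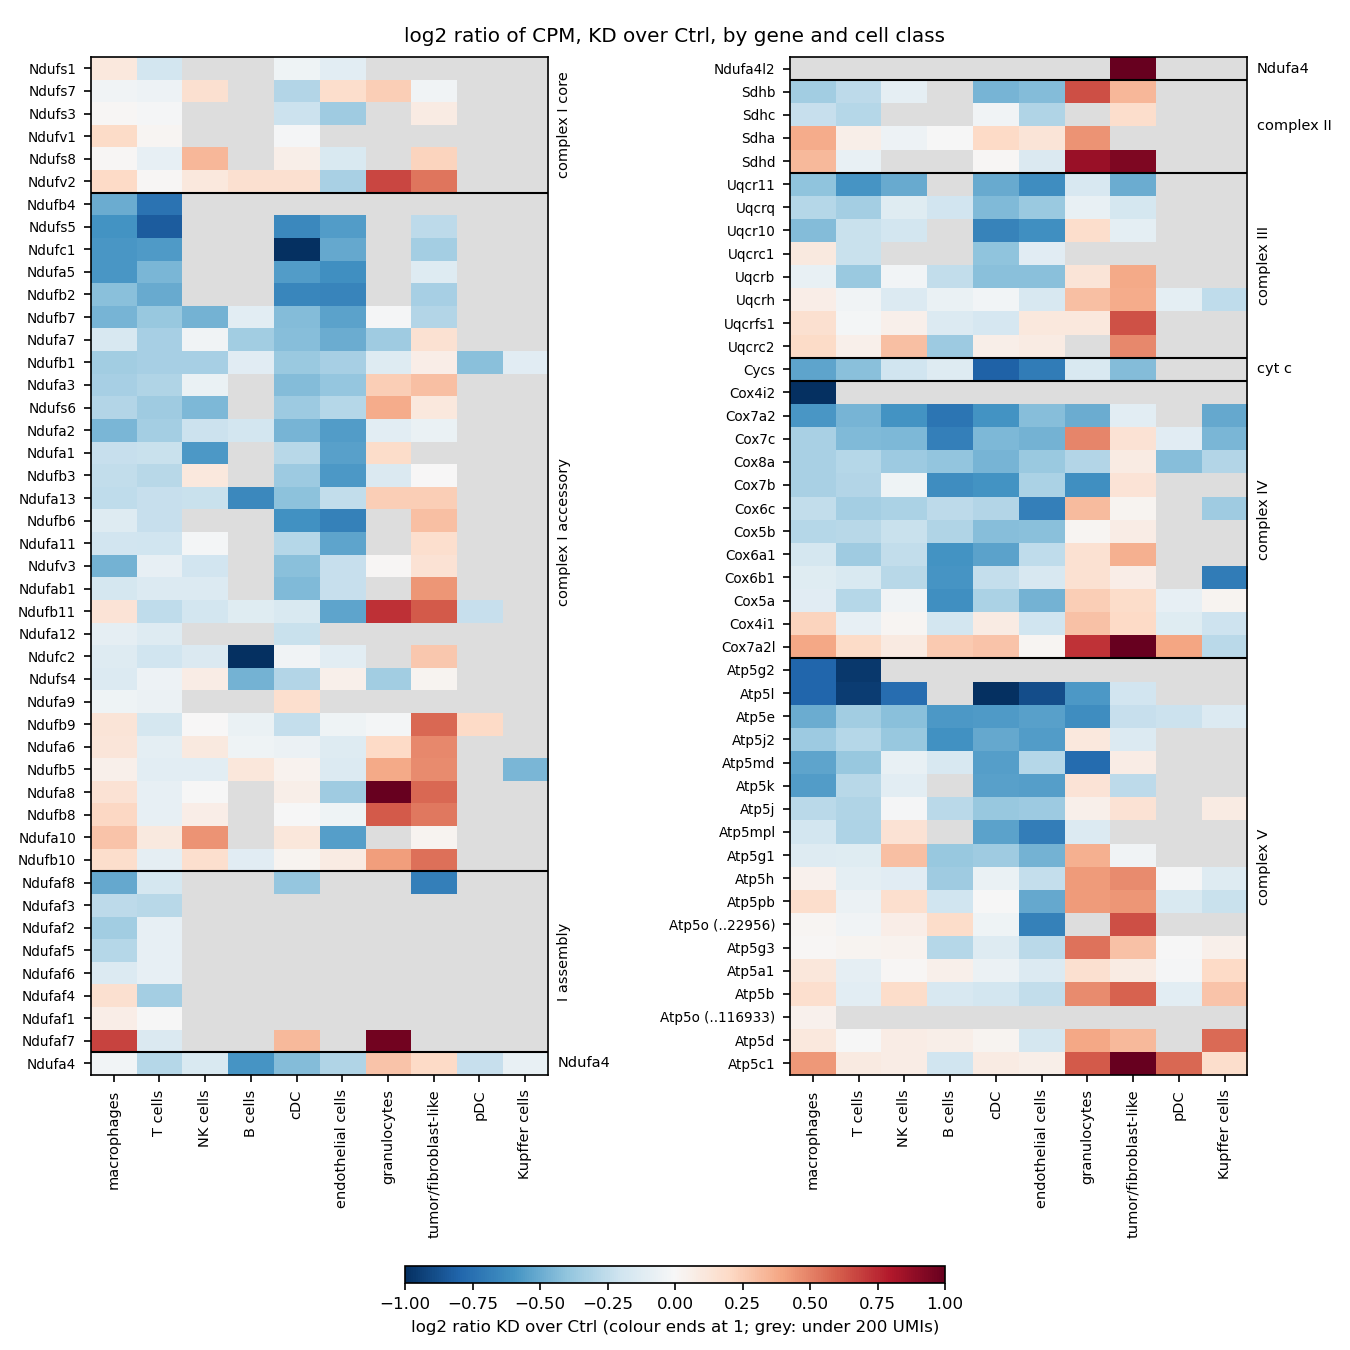
log2 ratio of CPM, KD over Ctrl, for the OXPHOS genes shown (rows, grouped by complex) in each cell class (columns), from blue (lower in KD) to red (higher in KD), with the colour ending at 1 in either direction and grey where both libraries together had fewer than 200 UMIs. Atp5e and Cox7a2 are blue in every class measured, and Cox7a2l is red in 9 of 10.

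Complex I differed between its catalytic core and its accessory shell, not only in macrophages and T cells. The 7 core subunits, which carry the flavin and iron-sulfur clusters, summed to 0.0489% of macrophage UMIs in Ctrl and 0.0519% in KD (log2 0.084, 0.049 to 0.12), and none passed the fold. The 30 accessory subunits summed to 0.386% and 0.349% (log2 -0.14, -0.16 to -0.13), with 10 lower and none higher, against 16.1% and 11.2% of all genes. In T cells the core stood at -0.069 (-0.11 to -0.025) and the accessory subunits at -0.23 (-0.24 to -0.21), again with 10 lower, against 9.33% of all genes. The core also stood above the accessory subunits in granulocytes (0.59 and 0.15), NK cells (0.21 and -0.091) and B cells (0.099 and -0.22). It did so in cDC (-0.0062 and -0.26) and endothelial cells (-0.078 and -0.31) as well. In Kupffer cells (0.11 and -0.20) and pDC (-0.021 and -0.068) the intervals overlapped. They also overlapped in tumor-like or fibroblast-like cells, with the core at 0.16 (0.014 to 0.31) and the accessory subunits at 0.22 (0.17 to 0.27). The core subunits had coding lengths of 600 to 2181 bases, which only Ndufa9 (1125) and Ndufa10 (1065) reached among accessory subunits with a known length. Ndufa10 had the highest accessory ratio in macrophages, 0.28. Whether role or length goes with the ratio was not tested. The accessory subunit Ndufs5 had 64.5 and 42.6 CPM in macrophages (log2 -0.60, -0.71 to -0.49) and 73.7 and 41.5 CPM in T cells (log2 -0.83, -0.98 to -0.68). Ndufa5 and Ndufc1, also accessory, had log2 ratios of -0.58 and -0.58 in macrophages and -0.46 and -0.57 in T cells. Ndufaf7, a methyltransferase acting on complex I during assembly, went the other way in macrophages, from 13.2 to 21.1 CPM (log2 0.68, 0.48 to 0.88). With classes from single-cell markers its ratio was 0.39. Over the 5 macrophage sub-clusters with enough UMIs its mean ratio was 0.25, with a lowest value of -0.033 and a highest of 0.55. Left out for few UMIs, the sub-cluster led by Il1a and Cxcl1 had a ratio of 1.08 (0.16 to 2.07), from 15 UMIs in Ctrl and 33 in KD. The sub-cluster led by Chil3 and Vcan had 43.1 CPM of Ndufaf7 in Ctrl and 51.4 in KD and held 381 and 457 cells.

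Complex II, which has no subunit encoded by mitochondrial DNA, was divided. In macrophages Sdha, the flavoprotein, had 52.4 CPM in Ctrl and 67.7 in KD (log2 0.37, 0.27 to 0.47), and Sdhd, a membrane anchor, had 72.4 and 90.6 CPM (log2 0.32, 0.24 to 0.41). Sdhb, the iron-sulfur protein of the same complex, had 127 and 99.8 CPM (log2 -0.35, -0.42 to -0.27), and the anchor Sdhc had 66.9 and 57.0 CPM (log2 -0.23, -0.33 to -0.13). In T cells none of the 4 passed the fold, and their sum stood at -0.15 (-0.21 to -0.086). In granulocytes all 3 measured members were higher in KD, where 34.6% of all genes were, with Sdhd at 27.7 CPM from 51 UMIs in Ctrl and 50.3 CPM from 366 UMIs in KD.

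In complex III the subunits differed. Uqcr10 had 180 CPM in Ctrl and 133 in KD macrophages (log2 -0.43, -0.50 to -0.37), and Uqcr11 was lower in T cells, from 133 to 88.2 CPM (log2 -0.59, -0.70 to -0.49). Uqcrc1, a core protein, had 54.2 and 57.9 CPM in macrophages, and Uqcrfs1, the Rieske iron-sulfur protein, had 118 and 132 CPM there. Uqcrh, the hinge protein, is short as well but had 331 and 347 CPM. Cycs, the electron carrier cytochrome c, had a ratio below 0 in all 8 classes where it was measured and passed the fold in 5. It had 251 CPM in Ctrl and 174 in KD macrophages (log2 -0.53, -0.58 to -0.47), 292 and 218 CPM in T cells (log2 -0.42, -0.49 to -0.36), and its lowest ratio in cDC (log2 -0.81, -0.93 to -0.69).

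In complex IV, Cox4i2 had the lowest ratio of all OXPHOS genes in macrophages, from 559 UMIs (21.2 CPM) in Ctrl to 224 UMIs (9.29 CPM) in KD, a log2 ratio of -1.19 (-1.42 to -0.97). It was lower in the 3 sub-clusters with enough UMIs. The sub-cluster of dividing cells led by H2ac24 and Top2a had 134 UMIs in Ctrl and 8 in KD, or 27.9 and 5.75 CPM. The one led by Mmp12 and Ccl8 had 33.0 and 15.5 CPM, and the one led by Upp1 had 25.4 and 16.4 CPM. Cox4i1 went from 561 to 656 CPM in macrophages (log2 0.23, 0.19 to 0.26) and from 639 to 602 CPM in T cells (log2 -0.085, -0.13 to -0.044). Of the small subunits, Cox7a2 had a ratio below 0 in 9 of 9 classes and passed the fold in 8, with 347 and 232 CPM in macrophages (log2 -0.58, -0.63 to -0.53) and 385 and 279 CPM in T cells. Cox8a had 702 and 560 CPM in macrophages and 738 and 606 CPM in T cells.

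Cox7a2l, which shares the Cox7a2 fold but serves to join complexes III and IV into supercomplexes, went opposite to Cox7a2. It had 216 CPM in Ctrl and 283 in KD macrophages (log2 0.39, 0.34 to 0.44), 242 and 276 CPM in T cells (log2 0.19, 0.13 to 0.25), and 87.4 and 144 CPM in granulocytes (log2 0.72, 0.48 to 0.97). Its ratio was above 0 in 9 of 10 classes, save Kupffer cells at -0.27, and in all 6 macrophage and all 8 T cell sub-clusters. Ndufa4, now counted as a subunit of complex IV, had 315 and 309 CPM in macrophages and 677 and 557 CPM in T cells. Its paralog Ndufa4l2, a known target of hypoxia signalling, was found mainly in tumor-like or fibroblast-like cells, with 88.2 CPM in Ctrl and 197 in KD (log2 1.16, 0.88 to 1.45), against 0.532 and 2.11 CPM in macrophages.

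In complex V the subunits also lay on both sides. Atp5l, the small subunit g of the membrane part, had 139 CPM in Ctrl and 80.4 in KD macrophages (log2 -0.79, -0.87 to -0.71), 137 and 71.1 CPM in T cells (log2 -0.95, -1.06 to -0.84) and 154 and 74.8 CPM in cDC (log2 -1.04, -1.25 to -0.84). Its ratio was below 0 in all 7 classes measured and passed the fold in 6. Atp5g2, 1 of the genes for the c ring, had 18.7 and 10.8 CPM in macrophages (log2 -0.80, -1.02 to -0.58) and 35.3 and 18.1 CPM in T cells (log2 -0.96, -1.19 to -0.74). Atp5e, the epsilon subunit, had a ratio below 0 in all 10 classes and passed the fold in 7, with 416 and 296 CPM in macrophages. Atp5c1, the gamma subunit of the rotating stalk, was higher instead, with 246 and 333 CPM in macrophages (log2 0.43, 0.39 to 0.48) and 213 and 425 CPM in tumor-like or fibroblast-like cells (log2 1.00, 0.81 to 1.18). In T cells it had 376 and 400 CPM. The catalytic subunit Atp5b had 280 and 314 CPM in macrophages and 411 and 383 CPM in T cells. Pseudogenes of Atp5l and Ndufs5 stood in the files under names of their own, and reads shared with them may have been split or lost in counting.

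**Figure D4:**
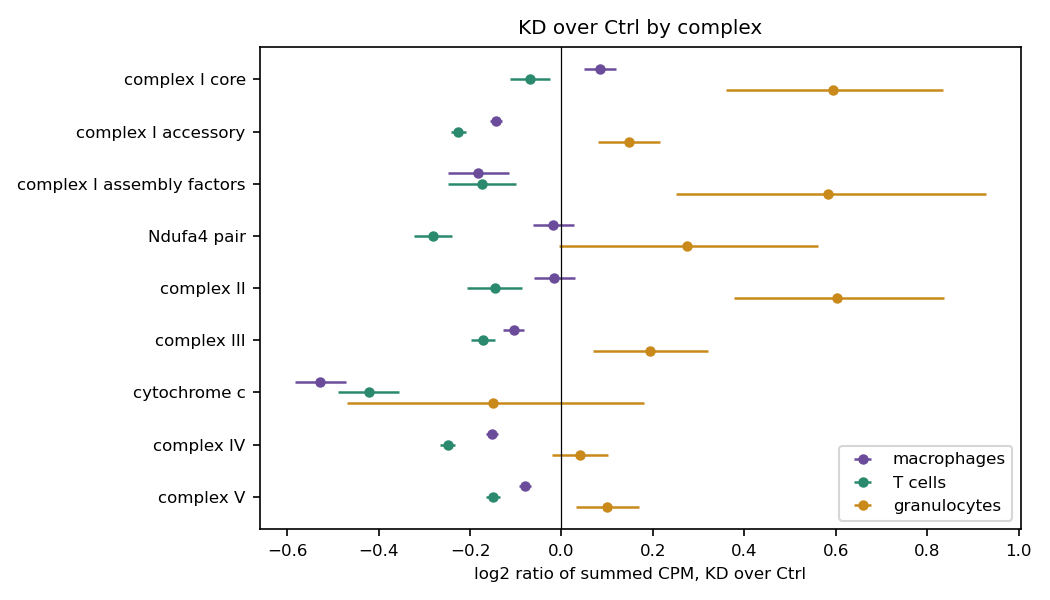
log2 ratio of the summed CPM, KD over Ctrl (x axis), for each complex in macrophages (purple), T cells (green) and granulocytes (ochre), with bars for the 95% counting interval. The core of complex I lies above 0 in macrophages (0.084) while cytochrome c lies at -0.53, and in granulocytes complex II lies at 0.60 (0.38 to 0.84).

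In granulocytes the genes lowest in KD were Atp5md (104 to 61.3 CPM), Atp5e (165 to 107 CPM), Cox7b (59.7 to 39.0 CPM), Atp5l (89.1 to 59.7 CPM) and Cox7a2 (167 to 118 CPM), all small subunits. Ndufa8, an accessory subunit of complex I, was highest, with 99 UMIs (53.8 CPM) in Ctrl and 864 UMIs (119 CPM) in KD (log2 1.14, 0.84 to 1.46). Ndufb11 had 61.9 and 103 CPM (log2 0.73, 0.45 to 1.03) and Ndufaf7 had 23.4 and 45.6 CPM. In T cells few genes lay above 0, among them Ndufa10 (61.6 and 65.9 CPM) and Uqcrc2 (104 and 108 CPM), both with intervals that held 0. The accessory subunit Ndufb4 was low in T cells on few molecules, with 11.1 CPM in Ctrl and 6.66 CPM from 74 UMIs in KD.

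Of the 72 OXPHOS genes measured in at least 5 classes, 12 lay below 0 in every class and 15 more in all but 1. None lay above 0 in every class, but 6 did in all but 1. No such count was made over all genes, whose median log2 ratio was itself below 0 in every class save granulocytes. The classes come from the same 2 libraries, so they are not replicates of one another.

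Ratios below 0 were more frequent among genes with a short coding sequence, with exceptions such as Cox4i2 and Sdhb. Of the 72 genes, 43 had a coding length under 450 bases (median of the annotated protein-coding transcripts, GENCODE M21), and 40 of these had a median ratio below 0. Of the 28 with 450 bases or more, 11 did, and 1 gene had no length. These counts were not made outside the set. There, genes under 300 bases had a median ratio below 0 in every class save granulocytes (0.019) and tumor-like or fibroblast-like cells (0.070). It was -0.086 in macrophages and -0.34 in endothelial cells. In macrophages 14 of 23 OXPHOS genes under 300 bases were lower by the fold and none was higher, while of 14 genes with 900 bases or more none was lower and 2 were higher. The median log2 ratio went from -0.33 under 300 bases to 0.14 at 900 bases or more in macrophages, from -0.30 to -0.081 in T cells and from -0.46 to 0.061 in cDC.

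Over genes, Spearman's rho between coding length and ratio was 0.65 in macrophages (n = 88 genes), 0.62 in T cells (n = 86), 0.69 in cDC (n = 78) and 0.54 in granulocytes (n = 57). These genes share the same 2 libraries and are no independent replicates. For genes outside the set rho was -0.066 in macrophages (n = 9222), 0.068 in T cells (n = 8776), 0.17 in cDC (n = 4883) and 0.022 in granulocytes (n = 3743), while in endothelial cells it was 0.54 within and 0.31 outside the set. Short genes outside the set were also lower more often in some classes, 27.8% of 194 genes under 300 bases in cDC against 9.70% of genes with 900 bases or more, but in macrophages the shares were 19.4% and 15.7%. Length was measured on the GRCm38 annotation, whereas the counts were made on GRCm39. Whether length, transcript age or RNA quality plays a part was not tested.

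**Figure D5:**
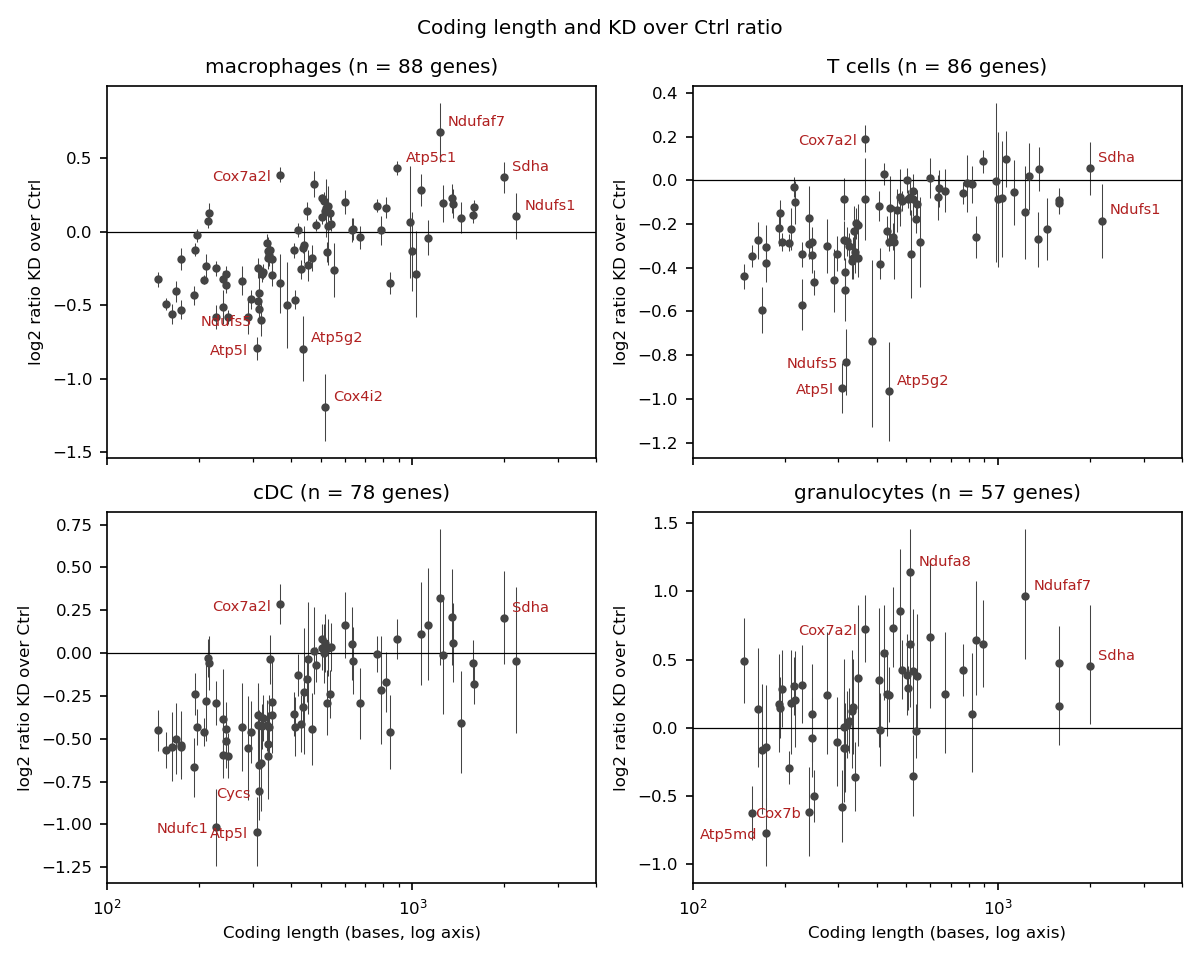
log2 ratio of CPM, KD over Ctrl (y axis, bars for the 95% counting interval), against coding length (x axis, bases, log axis) for the OXPHOS genes with at least 200 UMIs in macrophages, T cells, cDC and granulocytes. Atp5l, a short gene, lies low and Sdha, a long one, lies above 0, with Cox7a2l high and Cox4i2 (macrophages only) low for their length. Genes of 900 bases or more have a median of -0.081 in T cells, and genes under 300 bases have a median of 0.12 in granulocytes.

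The OXPHOS subunits encoded by mitochondrial DNA had the direction of the nuclear ones in macrophages and T cells, but not in most other classes. They took 0.430% of macrophage UMIs in Ctrl and 0.360% in KD (log2 -0.26, -0.27 to -0.24), a lower share as for the nuclear genes, and 0.382% and 0.361% in T cells. In NK cells they stood at 0.390% and 0.457%, in B cells at 0.466% and 0.508%, in pDC at 0.391% and 0.529%, in Kupffer cells at 0.508% and 0.559% and in endothelial cells at 0.459% and 0.520%, higher in KD in all 5, where the nuclear genes were lower. In tumor-like or fibroblast-like cells they were lower in KD, 0.930% against 0.610%, where the nuclear genes were higher. Their share was nearly the same in both libraries in cDC (0.279% and 0.279%) and granulocytes (0.101% and 0.103%). All mitochondrial transcripts, ribosomal RNA included, had a higher share in KD in 9 of 10 classes, 1.56% against 1.69% in macrophages and 1.51% against 1.98% in T cells, save tumor-like or fibroblast-like cells.

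Neighbouring pathways were counted with the same fold, beside which 16.1% of all genes were lower and 11.2% higher in macrophages, and 9.33% lower and 8.64% higher in T cells. Several counts were at or under these shares. Of the 33 measured assembly factors outside the Ndufaf group, 4 were lower and 2 higher in macrophages and 5 were lower and 1 higher in T cells. Of 16 citric acid cycle enzymes, which feed the chain with NADH, 2 were higher and none lower in macrophages, and none passed the fold in T cells. Of 78 mitochondrial ribosomal proteins, 4 were lower and 2 higher in macrophages and 11 were lower and none higher in T cells. Cytosolic ribosomal proteins, which are short as well, went from 8.83% to 10.2% of UMIs in macrophages, with 24 of 87 higher and 3 lower, and from 15.3% to 14.4% in T cells, with 14 of 86 lower. Of 17 glycolytic enzymes 6 were lower and 1 higher in macrophages, and in T cells 1 of 14 was lower and none higher. All 11 cell cycle genes were lower in KD macrophages, where the dividing sub-cluster held 486 Ctrl and 112 KD cells, and none passed the fold in T cells. Of the regulators of mitochondrial biogenesis, 2 of 11 were lower in macrophages and 2 of 11 higher in T cells.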

How the data were processed

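Libraries were made with 10x 3' chemistry. The files hold UMI counts, deposited by the authors as a matrix of genes by cells from Cell Ranger 7.1.0. GRCm39, Seurat 5.1.0 and R 4.4.1 are named in the submitters' processing notes. The cell filters of the study were applied (200 genes or more, no more than 10% mitochondrial UMIs, 30000 UMIs or 6000 genes), which left 19999 of 21359 cells. Doublets were not removed in the main results. Clusters (Seurat 5.3.0 in R 4.3.3, 2000 variable genes without the OXPHOS and mitochondrial genes, 20 components, resolution 0.5) were named by 3 or more markers at a log2 fold of 1 or more over other cells. A cluster of 164 Ctrl and 181 KD cells stayed unnamed. Rebuilt names may differ from those of the study.

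UMIs were summed per class and library and divided by the class total. Log2 ratios have exact conditional binomial intervals and shares have Clopper-Pearson intervals. Nothing was tested, since each group was a single library. Genes were counted as higher or lower with 0.5 CPM added and at least 200 UMIs over both libraries. The computation was tested on simulated data. Named genes are a set list of subunits, the 5 highest and 5 lowest ratios in macrophages, T cells and granulocytes, and the 5 widest ranges over classes among genes with the same highest and lowest class in both libraries. The genes and lists were chosen with earlier results of these data known. TMM scaling used edgeR 4.0.16. Doublets were scored with Scrublet in scanpy 1.11.5. 1 further gene of the set is counted in sums but not reported by name.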

Additional observations from a re-analysis of the deposited data

Results flagged for a closer look

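Under the same contrast of KD over Ctrl, 8 classes had summed log2 ratios of the OXPHOS genes below 0, while granulocytes had 0.13 and tumor-like or fibroblast-like cells had 0.21. With TMM scaling the ratio was -0.028 in Kupffer cells, -0.036 in NK cells, -0.018 in pDC and 0.018 in granulocytes. The difference between classes was not tested, since each class has 1 value per library. In tumor-like or fibroblast-like cells the median share per cell was 1.67% in both libraries among the deeper cells and 0.640% in Ctrl against 1.31% in KD among the shallower ones.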

How the results depend on the processing

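Values below are log2 ratios or counts of OXPHOS genes, and the cause of each change was not tested. The KD over Ctrl ratio in macrophages (-0.12) was -0.13 with a stricter cell filter, -0.13 with no upper limits, -0.13 with classes from single-cell markers, -0.090 with TMM scaling, -0.093 with a total without mitochondrial and ribosomal genes, -0.051 thinned to 1500 UMIs, -0.10 without clusters led by cell cycle genes, -0.17 without the low-UMI macrophage cluster (an alternative chosen after seeing the data) and -0.13 as a mean over sub-clusters. In T cells (-0.20) it was -0.27 with single-cell markers, -0.17 with TMM, -0.24 without cycling clusters and -0.14 as a mean over sub-clusters. In granulocytes (0.13) it was 0.088 without likely doublets, 0.018 with TMM, 0.080 thinned, and turned to -0.054 at resolution 1.0. In NK cells single-cell markers gave 0.20, and Atp5c1 in T cells was -0.0068 without cycling clusters.

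T cells over macrophages in Ctrl (0.25) was 0.24 with the stricter filter, 0.29 with no limits, 0.26 at resolution 1.0, -0.028 with TMM, 0.36 without mitochondrial and ribosomal genes, 0.24 thinned, 0.13 without cycling clusters and 0.15 without the low-UMI cluster. In KD (0.16) it was 0.21 with no limits, 0.10 with single-cell markers, -0.061 with TMM, 0.24 without mitochondrial and ribosomal genes, 0.090 thinned, -0.0057 without cycling clusters and 0.12 without the low-UMI cluster. Granulocytes over macrophages in Ctrl (-1.72) was -1.69 with no limits, -1.35 at resolution 1.0, -1.57 with the OXPHOS genes kept to cluster, -0.75 with TMM, -1.83 without mitochondrial and ribosomal genes, -1.59 thinned and -1.82 without the low-UMI cluster. In KD (-1.47) it was -1.53 without doublets, -1.29 at resolution 1.0, -1.51 with single-cell markers, -1.34 with the OXPHOS genes kept, -0.69 with TMM, -1.60 without mitochondrial and ribosomal genes, -1.45 without cycling clusters and -1.51 without the low-UMI cluster.

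In macrophages the 5 higher genes became 3 with single-cell markers, 9 thinned, 3 without the low-UMI cluster and 1 at 1.5-fold, and the 26 lower genes became 11 thinned and 4 at 1.5-fold. In T cells the count of higher genes, 0, became 1 thinned, and the 23 lower genes became 36 with single-cell markers and 5 at 1.5-fold. In granulocytes the 20 higher genes became 10 at resolution 1.0, 13 with TMM, 11 thinned, 9 at 1.5-fold and 12 after centring on all genes, and the 7 lower became 3 at 1.5-fold. Counting error was small for sums, but genes with few UMIs in granulocytes, pDC and Kupffer cells had wide intervals. With 1 library of 3 pooled mice per group, differences between mice and between libraries cannot be told apart from the hairpin. No paired analysis was possible because each group is 1 library.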
